A study of Mus musculus with 34 samples.

Results

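The 8 genes described here, Mki67, Top2a, Eomes, Neurod1, Dcx, Sox11, Igfbpl1 and Calb2, are used as markers of dividing precursors and young neurons of the dentate gyrus. They were taken by name from the 55385 genes of the deposited count and RPKM tables. All 8 were found and all 8 passed the filter on low counts that left 17518 genes to test. The libraries came from hippocampal RNA of 34 mice aged 6 months, with 1 library for each animal. The genotypes were wild-type C57BL/6J (WT), Dp16, 5xFAD, and 5xFAD-Dp16, which carries both alterations. Dp16 mice have an extra copy of the part of mouse chromosome 16 that corresponds to human chromosome 21, called the segment here, and 5xFAD mice express mutant human transgenes from the neuronal Thy1 promoter and form amyloid plaques. The alterations are present from the germline in the whole animal, and no group carries a change limited to the dentate gyrus. Tofacitinib, an inhibitor of Janus kinases, was given by gavage at 15 mg/kg each day for a month. Sham animals received the 0.5% methylcellulose vehicle the same way. There were 5 sham and 5 tofacitinib animals in WT, 3 and 5 in Dp16, 4 and 5 in 5xFAD, and 3 and 4 in 5xFAD-Dp16, with 16 females and 18 males in all. The labels number the animals and do not give litters, cages or days, so the p-values measure the spread between these animals.

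The dentate gyrus is one of the few regions of the adult mouse brain where neurons continue to be born. Radial glia-like stem cells give rise to dividing intermediate progenitors, which become neuroblasts and immature neurons and then mature granule cells. Mki67 (the Ki-67 antigen) and Top2a (DNA topoisomerase II alpha) are made by dividing cells of any kind. Eomes, or Tbr2, is a transcription factor of intermediate progenitors, and Neurod1 is a transcription factor needed for granule neurons to mature and survive. Dcx encodes doublecortin, a microtubule-binding protein of neuroblasts and immature neurons. Sox11 is a transcription factor of the same stage, Igfbpl1 a secreted protein found in young neurons, and Calb2 encodes calretinin, a calcium-binding protein made briefly by immature granule cells. Calb2 is also made by interneurons, mossy cells, Cajal-Retzius cells and thalamic neurons, and Eomes also by Cajal-Retzius cells. In tissue RNA, fewer cells of a type and less RNA per cell cannot be told apart.

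Libraries held 14.9 to 21.1 M counts. In 3 of them the 14 detected markers of the dentate gyrus, CA1 and CA3 were low on average. Their mean log2 CPM (counts per M, TMM-scaled) was 3.21 in WT tofacitinib animal 3, 3.75 in 5xFAD tofacitinib animal 2 and 3.40 in 5xFAD-Dp16 sham animal 4. In the other 31 it was 5.12 to 5.96. Single markers could differ from the mean. Prox1 stood at 16 and 45.8 CPM in the low WT and 5xFAD-Dp16 libraries. In the low 5xFAD library it stood at 81.9 CPM, above WT tofacitinib animal 4 at 63.9 CPM. Markers of thalamus and habenula reached 6.27 in the low 5xFAD library and 5.56 in the low 5xFAD-Dp16 library, and the highest of the 31 was at 4.63. Markers of striatum reached 5.91 in the low WT library and 6.67 in the low 5xFAD library, against 2.79 to 4.53 in the 31. The low 5xFAD-Dp16 library came from a male, and its 2 group mates were female.

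By length-scaled level (the deposited RPKM, mean ± SD over the 34 libraries), Calb2 was the most abundant of the 8 genes at 28.9 ± 20.9, followed by Neurod1 at 6.68 ± 2.15, Sox11 at 2.47 ± 0.392 and Dcx at 0.954 ± 0.18. Igfbpl1 stood at 0.884 ± 0.482, Eomes at 0.575 ± 0.44, Top2a at 0.279 ± 0.105 and Mki67 at 0.147 ± 0.0572. Calb2 was first in all 34 libraries, Neurod1 second in 32, Sox11 in the third place in 32 and Mki67 last in 25. The neighbours Dcx and Igfbpl1, and Igfbpl1 and Eomes, lay within each other's spread. The rarest genes rested on few reads: 5 to 54 counts per library for Mki67, 6 to 44 for Top2a, 2 to 93 for Eomes and 8 to 113 for Igfbpl1. The other 4 had more, from 88 to 237 for Dcx, 203 to 503 for Sox11, 43 to 577 for Neurod1 and 232 to 3388 for Calb2.

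On GRCm38, Mki67 lies on chromosome 7 (135689784 to 135716361), Top2a on chromosome 11 (98992943 to 99024189), Eomes on chromosome 9 (118478212 to 118486132) and Neurod1 on chromosome 2 (79452521 to 79456751). Sox11 lies on chromosome 12 (27334264 to 27342574), Igfbpl1 on chromosome 4 (45809468 to 45826923) and Calb2 on chromosome 8 (110137502 to 110168210). With Dcx on chromosome X (143855842 to 143933311), none of the 8 lies on chromosome 16, which holds the segment.

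Dcx and Sox11 varied least among animals. Their highest CPM was 2.67 and 2.41 times the lowest, and the SD of log2 CPM within groups was 0.245 and 0.251. Eomes varied most, with a highest CPM 59 times the lowest and a within-group SD of 1.36. Neurod1 spanned 14.3-fold over the 34 libraries and 3.03-fold over the 31, and Calb2 spanned 11.7-fold and 5.47-fold.

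**Figure D1:**
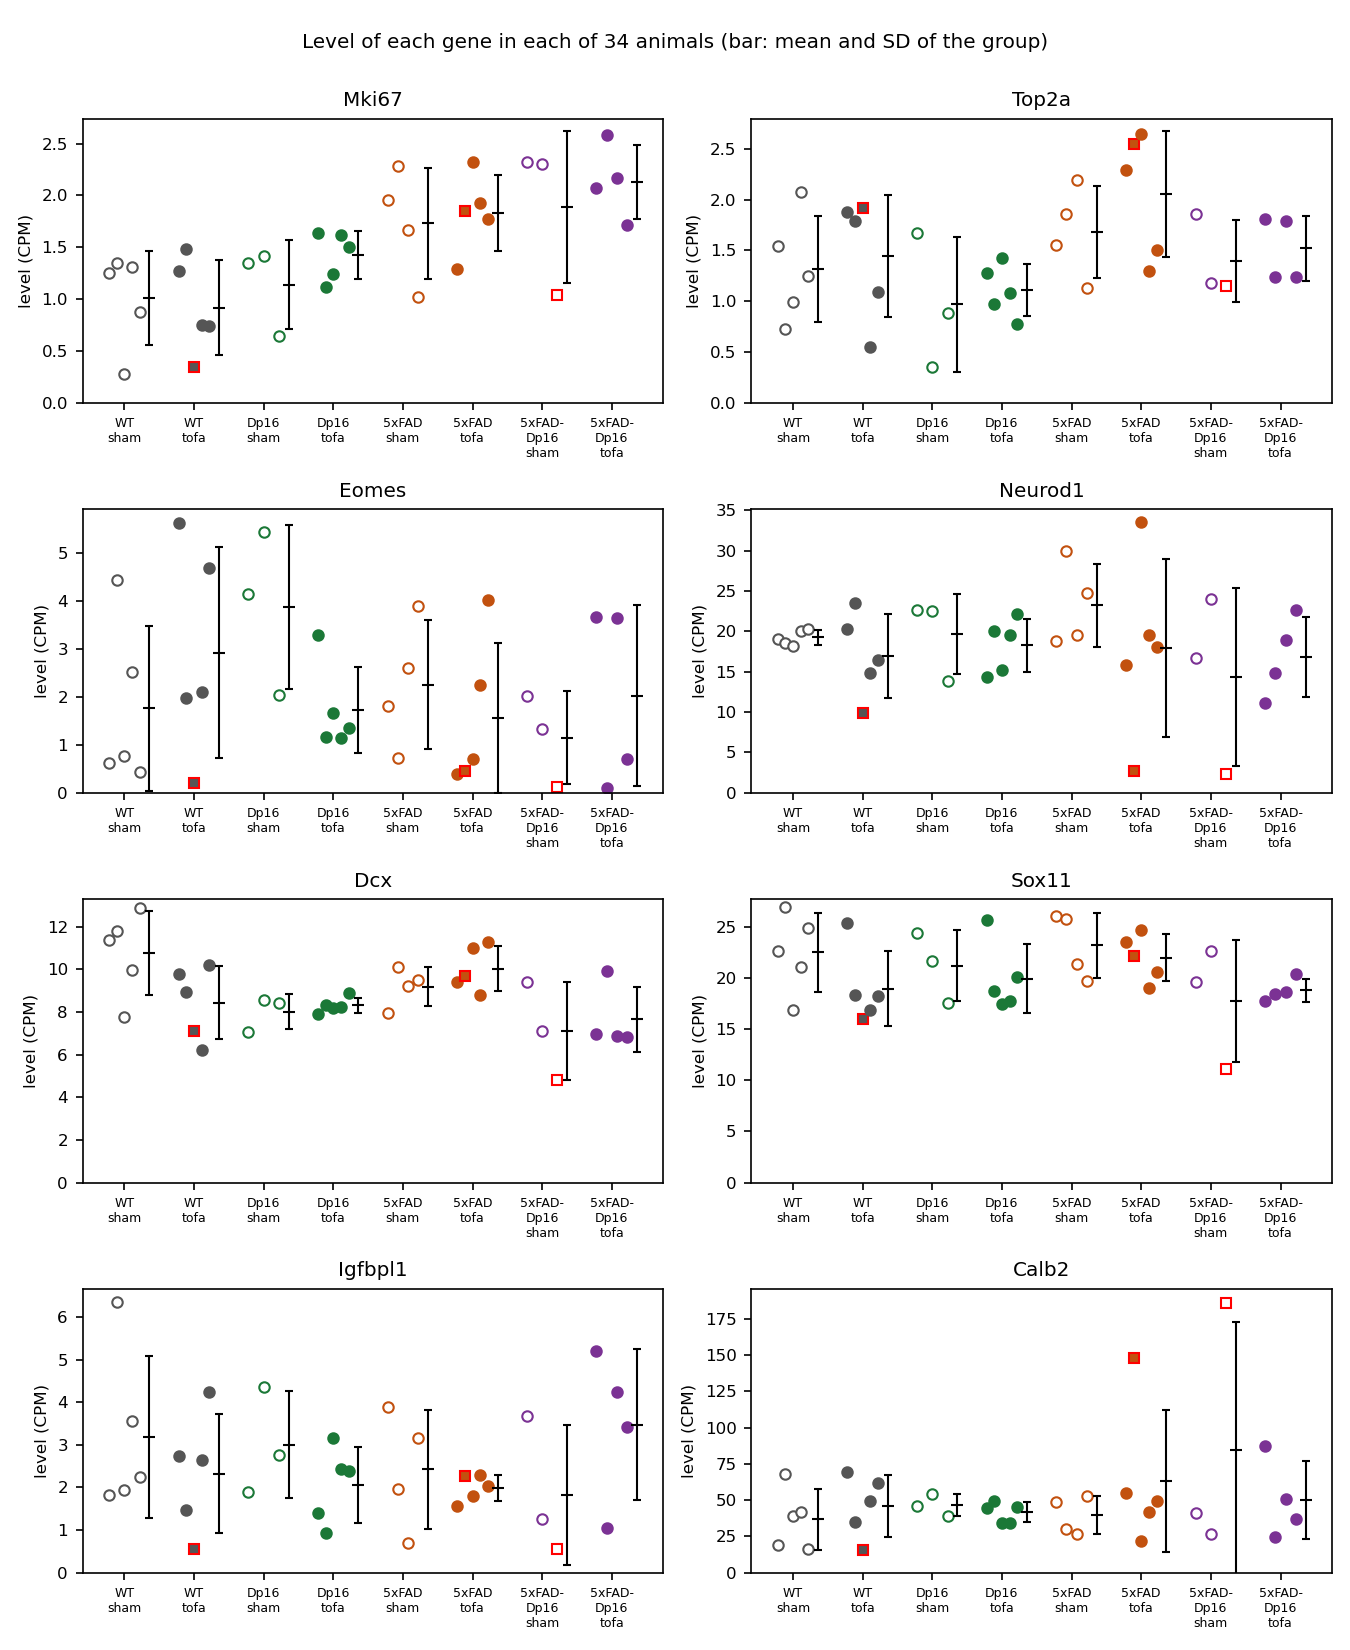
Level in CPM (vertical axis, from 0) of the 8 genes in each of the 34 animals by group, with sham animals as open and tofacitinib animals as filled symbols, colours for genotypes, red-edged squares for the 3 libraries low in hippocampal markers, and bars for the group mean and SD. Mki67 is above 1.64 CPM in 13 of the 16 animals with the transgenes and in none of the 18 others, while for each of the other 7 genes at most 4 of the 16 exceed all of the 18.

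The first question was whether the 5xFAD transgenes went with a change, averaged over both backgrounds and both treatments. Mki67 rose and the other 7 genes did not pass the test. The log2 fold change of Mki67 between animals with and without the transgenes was 0.81 (SE 0.18, 95% interval 0.43 to 1.19, 1.75-fold, edgeR adjusted p = 0.011), from a mean over groups of 1.12 to 1.90 CPM. Of all genes tested, 1.59% passed in this comparison, and a count of 1 does not set the 8 genes apart from the rest. Over the 8 genes the median log2 fold change was -0.03, and over all genes tested it was 0.

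In WT animals Mki67 stood at 1.25, 1.35, 0.275, 1.31 and 0.876 CPM with sham and at 1.27, 1.48, 0.343, 0.751 and 0.743 CPM with tofacitinib. In Dp16 animals it stood at 1.35, 1.42 and 0.646 CPM with sham and at 1.64, 1.12, 1.24, 1.62 and 1.5 CPM with tofacitinib. None of these 18 animals exceeded 1.64 CPM. With the transgenes, 5xFAD animals had 1.96, 2.28, 1.67 and 1.02 CPM with sham and 1.29, 1.85, 2.32, 1.93 and 1.77 CPM with tofacitinib. The 5xFAD-Dp16 animals had 2.32, 2.30 and 1.04 CPM with sham and 2.07, 2.58, 2.17 and 1.71 CPM with tofacitinib. The ranges overlapped, but only 3 of the 16 animals with the transgenes (5xFAD sham 4, 5xFAD tofacitinib 1 and 5xFAD-Dp16 sham 4) lay within the range of the others, and 14 of 16 lay above the median of the others.

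Group means of Mki67 ran from 0.918 ± 0.456 CPM in WT tofacitinib (n = 5) and 1.01 ± 0.453 in WT sham (n = 5) through 1.14 ± 0.427 in Dp16 sham (n = 3) and 1.43 ± 0.236 in Dp16 tofacitinib (n = 5). They continued with 1.73 ± 0.537 in 5xFAD sham (n = 4), 1.83 ± 0.372 in 5xFAD tofacitinib (n = 5), 1.89 ± 0.733 in 5xFAD-Dp16 sham (n = 3) and 2.13 ± 0.36 in 5xFAD-Dp16 tofacitinib (n = 4). The 4 groups with the transgenes had the 4 highest means, and neighbours in this order differed by less than the larger of their SDs. Mki67 kept its call in each of 34 refits that left out 1 library, with a log2 fold change of 0.74 to 0.86 and an adjusted p of 0.00684 to 0.0437, and without the 3 libraries low in hippocampal markers it was 0.82 (edgeR adjusted p = 0.0084). Between 5xFAD and WT sham animals alone it was 0.86 (SE 0.35, edgeR adjusted p = 0.8, unadjusted p = 0.0204).

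Top2a, the other gene of dividing cells, had a log2 fold change of 0.48 with the transgenes (SE 0.20, 95% interval 0.07 to 0.88), which did not pass (edgeR adjusted p = 0.347). It stood at 1.13 to 2.65 CPM (median 1.67) in the 16 animals with the transgenes and at 0.355 to 2.08 CPM (median 1.17) in the 18 others, so the ranges overlapped for most animals. Calb2 (0.45), Eomes (-0.44), Igfbpl1 (-0.14), Dcx (-0.06), Neurod1 (-0.06) and Sox11 (0.00 on the log2 scale) had adjusted p of 0.598 or more. The intervals were narrow for Dcx (-0.24 to 0.12) and Sox11 (-0.16 to 0.15) and wide for Eomes (-1.38 to 0.49). Without the 3 libraries low in hippocampal markers the Calb2 value was -0.11 in place of 0.45.

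**Figure D2:**
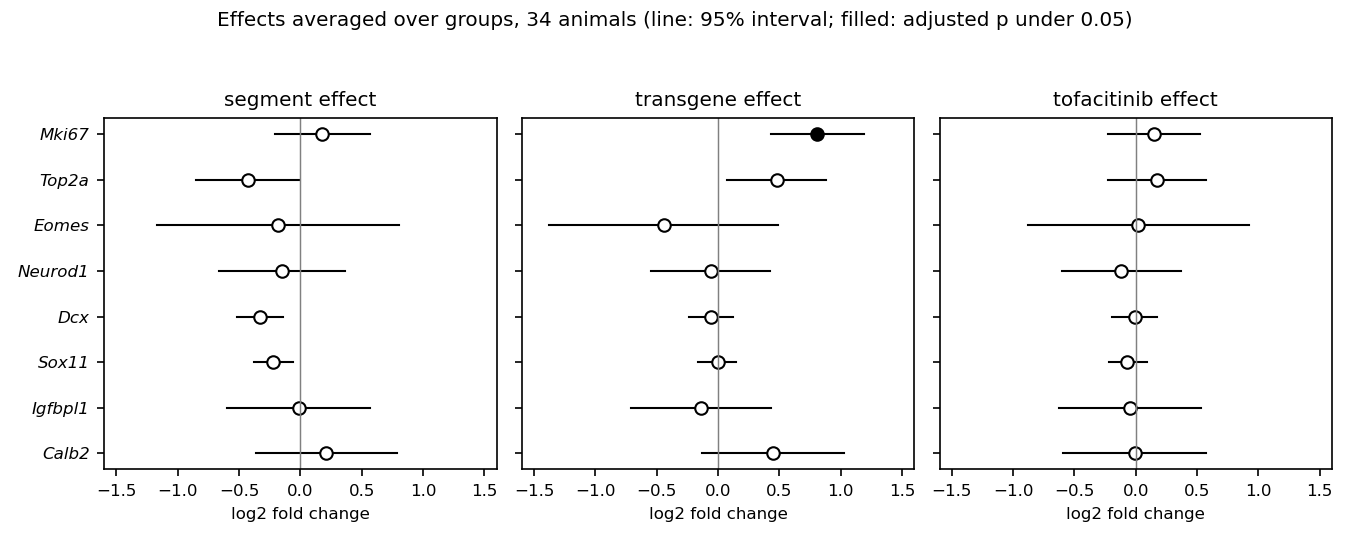
Log2 fold changes (horizontal axis) of the 8 genes for the segment, the transgenes and tofacitinib, each averaged over the other factors in 34 animals, with lines for the 95% interval and filled points for an adjusted p under 0.05. Mki67 with the transgenes, at 0.81, is the single filled point, and Dcx with the segment, at -0.33, has an adjusted p of 0.0638.

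The promoters of Mki67 and Top2a are shown because these are the 2 genes of the cell cycle among the 8. Many genes used late in the cell cycle carry CCAAT boxes, bound by NF-Y, and a cell cycle genes homology region with the letters TTTGAA. Both motifs were searched on both strands (ATTGG and TTCAAA on the other strand) in the 250 bases before the start of the gene, from RefSeq on GRCm38.p6. RefSeq promoters were matched for 6 of the 8 genes, not for Calb2 and Igfbpl1. The Mki67 sequence is chr7:135716380-135716629 and the Top2a sequence chr11:99024190-99024439, both on the minus strand and written 5′ to 3′, with both motifs in capitals.
Mki67: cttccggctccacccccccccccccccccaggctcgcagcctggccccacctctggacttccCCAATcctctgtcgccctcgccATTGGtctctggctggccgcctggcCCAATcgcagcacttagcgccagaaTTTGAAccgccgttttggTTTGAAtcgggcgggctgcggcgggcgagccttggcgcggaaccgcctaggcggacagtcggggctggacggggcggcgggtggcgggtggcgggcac
Top2a: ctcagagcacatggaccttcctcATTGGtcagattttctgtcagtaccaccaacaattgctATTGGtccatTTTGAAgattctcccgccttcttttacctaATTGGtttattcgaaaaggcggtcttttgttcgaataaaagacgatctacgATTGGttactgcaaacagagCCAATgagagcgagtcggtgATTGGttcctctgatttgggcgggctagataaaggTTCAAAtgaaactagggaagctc
The Mki67 promoter held 3 CCAAT boxes (188, 166 and 141 bases before the start) and 2 TTTGAA motifs (116 and 98 bases before it). The Top2a promoter held 6 CCAAT boxes, from 227 to 58 bases before the start, and 2 TTTGAA motifs. Of 32851 promoters of this length, 33.8% held at least 1 CCAAT box, 10.1% at least 2 and 2.79% at least 3. At least 1 TTTGAA motif was held by 16.0% and at least 2 by 1.81%. At least 3 CCAAT boxes together with at least 2 TTTGAA motifs were held by 18 (0.0548%). These last cut-offs equal the counts of the Mki67 promoter itself, so the share is a description and not a test. Among the other matched genes, Eomes had 2 CCAAT boxes, Sox11 1 of each motif, Dcx 1 CCAAT box in 1 of its 2 promoters, and Neurod1 neither. A match of letters is a description of the sequence and not of binding.

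Other genes of the cell cycle did not pass the test with the transgenes. Of 22 listed proliferation genes, 19 were tested and 0 passed for the transgenes, the segment or tofacitinib with edgeR. Their median log2 fold change with the transgenes was 0.15, with 13 of 19 above 0, against 0 for all genes. The smallest p was that of Cdk1, the kinase that starts mitosis, at 0.90 (SE 0.36, edgeR adjusted p = 0.313). Ccnb2, Bub1 and Aurkb were among the listed genes and were too low to be tested.

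Markers of microglia, which divide around amyloid plaques, moved with the transgenes in the same libraries. Of 9 microglia markers 7 rose with the transgenes, among them Cx3cr1, a receptor of resting and active microglia (0.49, SE 0.08, edgeR adjusted p = 0.000311), and Cst7, a gene of plaque-associated microglia (6.48, SE 0.46, edgeR adjusted p = 6.11e-10). The other 2, P2ry12 (0.32, SE 0.09, edgeR adjusted p = 0.0825) and Tmem119 (0.19, SE 0.07, edgeR adjusted p = 0.305), are genes of resting microglia, and without the 3 low libraries all 9 passed. The mean log2 CPM of the list ranged from 3.29 to 5.54 in animals with the transgenes and from 2.56 to 3.17 in the others, and the summed level from 225 to 680 and from 227 to 295 CPM. None of the 16 animals with the transgenes lacked Cst7 (2.25 to 48.1 CPM), while the 18 others had 0 to 0.823 CPM.

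Among the 16 animals with the transgenes, Mki67 and the microglia list had Pearson r = 0.60 (permutation p = 0.013, adjusted over 4 correlations 0.053). Spearman rho was 0.44 (permutation p = 0.087, adjusted 0.16), and neither passed 0.05 after adjustment. Group means were not removed within these 16 or the 18 other animals, so differences between groups enter these values. Without the 2 animals farthest from the median microglia level r was 0.15, so the relation among these 16 rested on those 2. Among the 18 other animals r was 0.17 (permutation p = 0.51, adjusted 0.51) and rho 0.38 (permutation p = 0.12, adjusted 0.16). For Top2a r was 0.40 with the transgenes (permutation p = 0.12, adjusted 0.25) and 0.23 without (permutation p = 0.36, adjusted 0.48). As deviations from group means over all 34 animals, Mki67 and the microglia list had r = 0.37 (permutation within groups p = 0.026, adjusted over 104 correlations 0.11) and rho = 0.42 (permutation p = 0.025, adjusted 0.13), with r = 0.58 without the 2 animals farthest from the median of Mki67. Over the 31 animals without the low libraries r was 0.42 (permutation p = 0.018, adjusted 0.13) and rho 0.54 (permutation p = 0.005, adjusted 0.043), with r = 0.43 without the 2 farthest. With the hippocampal subfield markers, also as deviations from group means, Mki67 had r = 0.50 and rho = 0.44 over the 34 animals (permutation p = 0.014 and 0.0052, adjusted 0.082 and 0.05). Over the 31 animals these were 0.27 and 0.44 (adjusted permutation p = 0.24 and 0.072). The part of microglia in the Mki67 difference was not tested further.

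**Figure D3:**
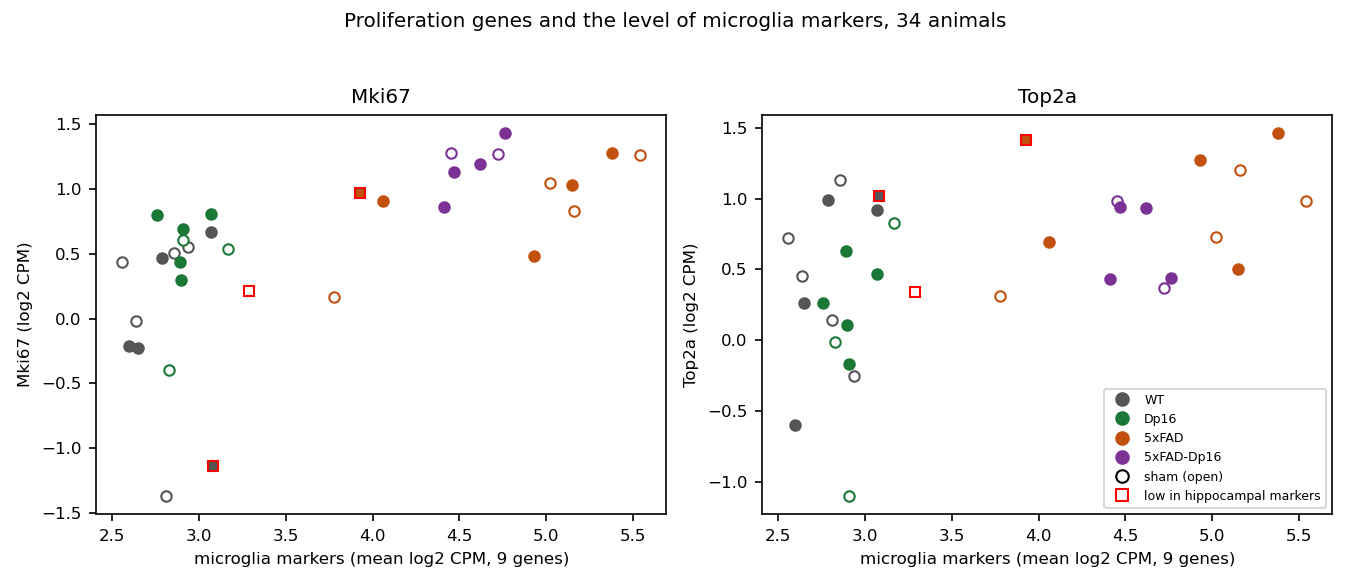
Log2 CPM of Mki67 and Top2a (vertical axes) against the mean log2 CPM of 9 microglia markers (horizontal axes) in the 34 animals, with colours for genotypes, open symbols for sham and red-edged squares for the 3 libraries low in hippocampal markers. Animals with the transgenes lie at 3.29 or more on the microglia axis and the 18 others at 3.17 or less.

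The next question was the effect of the segment, averaged over animals with and without the transgenes and both treatments. With edgeR 0 of the 8 genes passed, where 1.38% of all genes did, and 3 of 8 (Dcx, Sox11 and Top2a) had an unadjusted p under 0.05, as did 12.8% of all genes. DESeq2 called 1 of the 8, Dcx, and 415 of all genes. The median log2 fold change of the 8 genes was -0.16, and 2 of them lay above 0.

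Dcx had the smallest p of the 8, with a log2 fold change of -0.33 between animals with and without the segment (SE 0.09, 95% interval -0.52 to -0.14, edgeR adjusted p = 0.0638, DESeq2 adjusted p = 0.0292). In WT animals Dcx stood at 11.4, 11.8, 7.76, 9.96 and 12.9 CPM with sham and at 9.77, 8.94, 7.13, 6.21 and 10.2 CPM with tofacitinib. In 5xFAD animals it stood at 7.96, 10.1, 9.23 and 9.50 CPM with sham and at 9.40, 9.67, 11, 8.82 and 11.3 CPM with tofacitinib. These 19 animals without the segment had a median of 9.67 CPM. The Dp16 animals had 7.06, 8.57 and 8.45 CPM with sham and 7.91, 8.35, 8.17, 8.23 and 8.90 CPM with tofacitinib. The 5xFAD-Dp16 animals had 9.42, 7.11 and 4.83 CPM with sham and 6.96, 9.95, 6.89 and 6.83 CPM with tofacitinib. The ranges overlapped, and 14 of the 15 animals with the segment lay below that median.

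The Dcx value was on the border of the threshold. In the 34 refits that left out 1 library it ranged from -0.38 to -0.26 and its edgeR adjusted p from 0.0208 to 0.19, and it passed in 5 of them (without WT sham 3, WT tofacitinib 4, 5xFAD sham 1, 5xFAD-Dp16 sham 1 or 5xFAD-Dp16 tofacitinib 2). Without the 3 libraries low in hippocampal markers it was -0.28 (edgeR adjusted p = 0.136). By group, Dcx was highest in WT sham (10.8 ± 1.98 CPM, n = 5) and lowest in 5xFAD-Dp16 sham (7.12 ± 2.3 CPM, n = 3), with the other 6 groups between 7.66 and 10 CPM. Dcx is X-linked, and the fit held a term for sex.

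Sox11 had a log2 fold change of -0.22 with the segment (SE 0.08, 95% interval -0.38 to -0.06, edgeR adjusted p = 0.184). It stood at 11.1 to 25.6 CPM (median 18.7) in the 15 animals with the segment and at 16.0 to 26.9 CPM (median 21.3) in the 19 others, with 11 of 15 below that median. Top2a was at -0.43 (SE 0.20, 95% interval -0.85 to -0.01, edgeR adjusted p = 0.359), from 0.355 to 1.86 CPM with the segment and 0.551 to 2.65 CPM without. Calb2 (0.21), Mki67 (0.18), Eomes (-0.18), Neurod1 (-0.15) and Igfbpl1 (-0.01 on the log2 scale) had adjusted p of 0.77 or more. The values of Calb2 and Igfbpl1 had the opposite sign without the 3 libraries low in hippocampal markers, at -0.10 and 0.09.

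Other genes of the lineage were read from lists. Of 16 immature neuron genes tested, 0 passed for the segment with edgeR, with a median log2 fold change of -0.08 and 4 of 16 above 0, against 0 for all genes. The smallest p in that list was that of Marcksl1, an actin- and calmodulin-binding protein of growing neurons (-0.35, SE 0.09, edgeR adjusted p = 0.0547). Among 14 genes of intermediate progenitors and neuroblasts 0 passed (median -0.06), and Sox4, a transcription factor related to Sox11, had the smallest p (-0.22, SE 0.06, edgeR adjusted p = 0.0775). Without the 3 low libraries Marcksl1 passed (-0.36, edgeR adjusted p = 5.09e-06). So did the Notch target Hes5 of the stem cell list (-0.44, edgeR adjusted p = 0.0311) and Wnt7b of the niche list (-0.25, edgeR adjusted p = 0.0121), each named here after their values were seen.

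Radial glia-like stem cell genes had a median of 0.13 with the segment (14 tested, 0 passed) and led with Lpar1, a lysophosphatidic acid receptor of these cells (0.31, SE 0.10, edgeR adjusted p = 0.148). Mature granule neuron genes had a median of -0.02 (12 tested, 0 passed) and led with Plk5 (-0.34, SE 0.11, edgeR adjusted p = 0.123). For the transgenes 0 genes passed in these 4 lists, and the medians were 0.03 (stem cells), 0.02 (progenitors and neuroblasts), 0.06 (immature neurons) and 0.02 (granule neurons). Of 19 signals of the niche tested, Cxcl12, a chemokine that guides young granule neurons, rose with the segment (0.29, SE 0.06, edgeR adjusted p = 0.00222). Igf1, a growth factor that microglia also make, rose with the transgenes (0.46, SE 0.11, edgeR adjusted p = 0.0173).

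Tofacitinib against sham, averaged over the 4 genotypes, gave 0 calls among the 8 genes, as among all 17518 (0%). None of the 8 had an unadjusted p under 0.05, as 7.73% of all genes did, and DESeq2 called 0 of the 8 and 2 of all genes. Log2 fold changes ran from -0.12 for Neurod1 to 0.17 for Top2a, with edgeR adjusted p of 0.856 or more. The 95% intervals were -0.19 to 0.17 for Dcx, -0.22 to 0.09 for Sox11, -0.23 to 0.52 for Mki67, -0.23 to 0.57 for Top2a and -0.60 to 0.37 for Neurod1. They were wider for Calb2 (-0.59 to 0.57), Igfbpl1 (-0.63 to 0.53) and Eomes (-0.88 to 0.92). None of the 6 lists of lineage and niche genes had a member past the threshold for tofacitinib with edgeR, and the list medians ran from -0.14 (granule neurons) to 0.12 (proliferation).

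Within genotypes the picture was the same with edgeR and with DESeq2: 0 of the 8 passed for tofacitinib in WT (0% of all genes), Dp16 (0.00571%), 5xFAD (0%) or 5xFAD-Dp16 animals (0%). In WT animals Dcx had an unadjusted p of 0.0352 with edgeR, at -0.35 (SE 0.16, adjusted p = 1), the single one of the 8 with an unadjusted p under 0.05 in any of these 4 comparisons. The gene of smallest p was Eomes in Dp16 (-1.14, SE 0.89), Calb2 in 5xFAD (0.60, SE 0.55) and Igfbpl1 in 5xFAD-Dp16 animals (1.00, SE 0.63), with edgeR adjusted p of 0.719 or more. The Calb2 value was 0.10 without 5xFAD tofacitinib animal 2, and the Igfbpl1 value 0.53 without 5xFAD-Dp16 sham animal 4 and 1.99 without 5xFAD-Dp16 sham animal 1. Both libraries that lowered these values were low in hippocampal markers.

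Sham animals of each altered genotype were compared with the same 5 WT sham animals, so these comparisons share their controls. With edgeR and DESeq2 alike, 0 of the 8 passed in Dp16 (0.308% of all genes), 5xFAD (0.445%) and 5xFAD-Dp16 animals (0.959%). Unadjusted p under 0.05 were found for Dcx in Dp16 (-0.44, SE 0.19, edgeR adjusted p = 0.571), where 7.29% of all genes had them. They were also found for Mki67 in 5xFAD animals, given above, where 5.09% of all genes had them. In 5xFAD-Dp16 animals they were found for 3 of the 8 genes and for 14.3% of all genes. The 3 were Dcx (-0.63, SE 0.19, edgeR adjusted p = 0.107), Sox11 (-0.42, SE 0.16, adjusted p = 0.216) and Calb2 (1.25, SE 0.57, adjusted p = 0.32).

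In this comparison 5xFAD-Dp16 sham animal 4, which was low in hippocampal markers, had the lowest Dcx (4.83 CPM) and Sox11 (11.1 CPM) and the highest Calb2 (186 CPM) of all 34. Its 2 group mates had 41.3 and 26.6 CPM of Calb2, and WT sham animals 19.3, 67.8, 38.8, 42.0 and 16.0 CPM. Without the 3 low libraries the Calb2 value was -0.28 in place of 1.25, the Dcx value -0.41 (edgeR adjusted p = 0.647) and the Sox11 value -0.20 in place of -0.42 (edgeR adjusted p = 0.815). Without 5xFAD-Dp16 sham animal 1 the Dcx value was -0.88 and passed (edgeR adjusted p = 0.022).

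Whether 2 factors changed each other's effect was tested with interaction terms. With edgeR 0 of the 8 and 0 of all genes (0%) passed for segment by transgene, tofacitinib by segment and tofacitinib by transgene, and DESeq2 called 0 of the 8 in each. Sox11 alone had an unadjusted edgeR p under 0.05, for segment by transgene (-0.31, SE 0.15, adjusted p = 0.942), where 4.86% of all genes did. Its segment effect was thus not shown to differ between animals with and without the transgenes. The gene of smallest p was Calb2 for tofacitinib by segment (-0.95, SE 0.56) and Dcx for tofacitinib by transgene (0.26, SE 0.18). Without 5xFAD-Dp16 sham animal 4 these values were -0.09 for Calb2 and 0.17 for Dcx, and that of Sox11 for segment by transgene was -0.21.

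The 8 genes did not vary as a block from animal to animal. Over the 28 pairs, log2 CPM as deviations from group means was correlated past an adjusted p of 0.05 in 2 pairs over the 34 animals. Sox11 went with Mki67 (r = 0.67, rho = 0.65, permutation within groups p = 0.00052 and 0.00079, adjusted over 28 pairs 0.0073 and 0.011), and r was 0.62 without the 2 animals farthest from the median of Sox11. Eomes went with Igfbpl1 (r = 0.68, rho = 0.61, permutation p = 0.00037 and 0.00042, adjusted 0.0073 and 0.011), and r was 0.54 without the 2 farthest. The 2 genes of dividing cells, Mki67 and Top2a, had r = 0.17 (permutation p = 0.47, adjusted 0.57) and rho = 0.27 (permutation p = 0.21, adjusted 0.45). Dcx and Sox11 had r = 0.50 (permutation p = 0.047, adjusted 0.19) and rho = 0.40 (permutation p = 0.053, adjusted 0.19). Without the 2 farthest animals r of Dcx and Sox11 was 0.26, and that of Mki67 and Top2a 0.25.

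Without the 3 libraries low in hippocampal markers, Eomes, Igfbpl1 and Calb2 varied together. Eomes and Calb2 had r = 0.70 and rho = 0.65 over 31 animals (permutation p = 0.0015 and 0.0024, adjusted 0.027 and 0.029), against r = 0.30 over 34, and r was 0.60 without the 2 farthest. Calb2 and Igfbpl1 had r = 0.61 and rho = 0.59 (permutation p = 0.0019 and 0.0031, adjusted 0.027 and 0.029), and r was 0.65 without the 2 farthest. Sox11 and Mki67 (r = 0.60, adjusted permutation p = 0.045) and Eomes and Igfbpl1 (r = 0.56, adjusted permutation p = 0.045) also passed by r over the 31, where rho had an adjusted p of 0.074 for the first pair and 0.029 for the second. Without the 2 farthest animals r was 0.61 for Sox11 and Mki67 and 0.39 for Eomes and Igfbpl1.

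**Figure D4:**
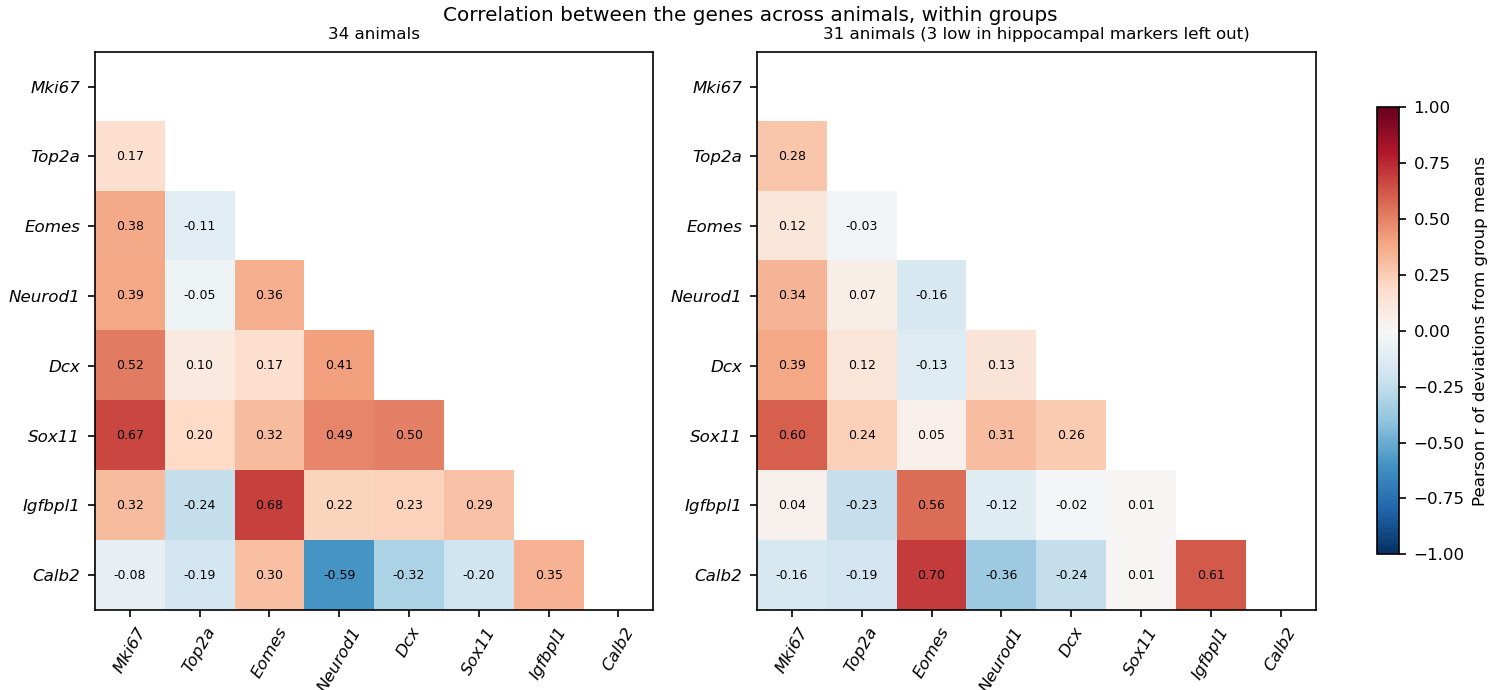
Pearson r between each pair of the 8 genes, from log2 CPM as deviations from group means, over 34 animals (left) and over the 31 without the libraries low in hippocampal markers (right), with colour from -1 to 1. Eomes and Calb2 are at 0.30 on the left and 0.70 on the right, and Sox11 and Mki67 at 0.67 and 0.60.

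The genes were then set beside 13 lists of markers of cells or regions that a hippocampal sample can hold, 104 correlations of deviations from group means in all. Neurod1 followed the 14 hippocampal subfield markers (r = 0.86, rho = 0.86, permutation p = 1e-05 for both, the smallest they can give, adjusted 0.00035), with r = 0.76 without the 2 animals farthest from the median of Neurod1 and 0.86 over the 31 animals. In the 3 libraries low in these markers Neurod1 stood at 9.87, 2.66 and 2.36 CPM, and in the other 31 at 11.1 to 33.6 CPM. What part young and mature neurons each had in the Neurod1 level was not tested. Neurod1 went against the striatum list (r = -0.72 and rho = -0.72 over 34 animals, adjusted permutation p = 0.00035 for both; r = -0.67 over 31, adjusted p = 0.0021) and the thalamus list (r = -0.85, rho = -0.57, adjusted permutation p = 0.036 and 0.057; r = -0.45 over 31, adjusted p = 0.27). Dcx and Sox11 passed with none of the 13 lists.

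Calb2 followed the list of Reln, Trp73, Lhx5, Ndnf and Lhx1, taken as Cajal-Retzius markers (r = 0.89, rho = 0.90, permutation p = 1e-05 for both, adjusted 0.00035), with r = 0.89 without the 2 farthest animals and 0.85 over the 31. It also went with thalamus and habenula (r = 0.76, 0.64 over 31), choroid plexus (0.60, 0.62) and ependyma markers (0.58, 0.69), with adjusted permutation p of 0.0012, 0.013 and 0.035 over the 34. Their rho over the 34 was 0.69, 0.62 and 0.63 (adjusted permutation p = 0.0049, 0.0091 and 0.017). With mossy cell markers r was 0.16 over 34 and 0.67 over 31 animals (adjusted permutation p = 0.62 and 0.0094). Calb2 had r = 0.62 with oligodendrocyte precursors (rho = 0.52, adjusted permutation p = 0.033 and 0.057), -0.66 with neocortex (rho = -0.56, adjusted permutation p = 0.035 and 0.056) and -0.58 with microglia (rho = -0.51, adjusted permutation p = 0.036 and 0.079). Over the 31 animals these r were 0.29, -0.33 and -0.28, with adjusted permutation p of 0.42, 0.34 and 0.36. With the interneuron list r was -0.61 over 34 (adjusted permutation p = 0.083) and -0.01 over 31. Calb2 itself was left out of the thalamus list. Choroid plexus markers ranged in sum from 21.1 to 5640 CPM between libraries, and Cajal-Retzius markers from 27.2 to 85.7 CPM. The mean log2 CPM of the Cajal-Retzius list was -0.08, 2.55 and 3.49 in the 3 libraries low in hippocampal markers, against 1.05 to 2.46 in the 31. Which cells of the sample made the genes of that list, Cajal-Retzius cells or others, was not tested.

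Igfbpl1 followed a list of 7 genes taken as markers of neuroblasts of the subventricular zone and rostral migratory stream. This is the other site of adult neuron birth, and the list includes Dlx1, Dlx2 and Sp8. The correlation had r = 0.61 and rho = 0.72 (permutation p = 4e-05 for both, adjusted 0.001). It had r = 0.68 without the 2 farthest animals and 0.73 over the 31. Which cells of the sample made these 7 genes, such neuroblasts or others, was not tested. With ependyma markers, which line the ventricle, Igfbpl1 had r = 0.60 and rho = 0.64 (adjusted permutation p = 0.01 and 0.0023). Eomes had r = 0.48 with the same neuroblast list over 34 and 0.53 over 31 animals (adjusted permutation p = 0.053 and 0.024), and 0.53 and 0.57 with ependyma (0.053 and 0.027). Its rho over 31 animals was 0.56 and 0.59 (adjusted permutation p = 0.028 and 0.041). With the Cajal-Retzius list Eomes had r = 0.33 over 34 and 0.61 over 31 animals (adjusted permutation p = 0.34 and 0.062). There rho over 31 animals was 0.55 (adjusted permutation p = 0.072). What part cells outside the dentate gyrus had in the levels of Calb2, Igfbpl1 and Eomes was not tested further.

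**Figure D5:**
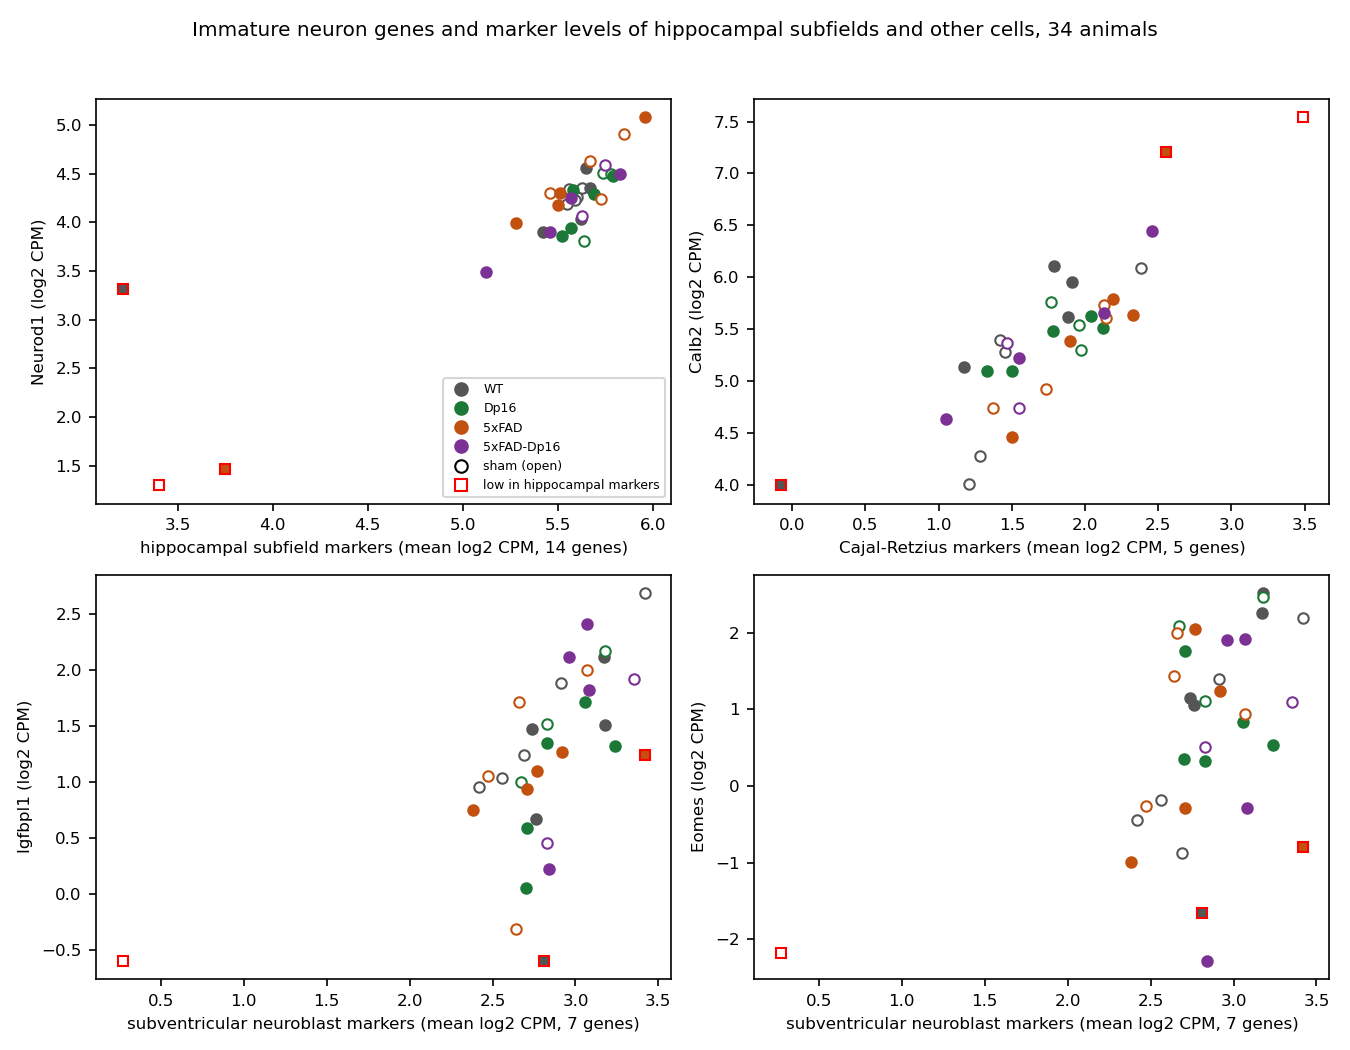
Log2 CPM of Neurod1, Calb2, Igfbpl1 and Eomes (vertical axes) against the mean log2 CPM of a marker list (horizontal axes) in the 34 animals, with colours for genotypes, open symbols for sham and red-edged squares for the 3 libraries low in hippocampal markers. Within groups r is 0.86 for Neurod1 with hippocampal subfields and 0.89 for Calb2 with the list taken as Cajal-Retzius markers. It is 0.61 and 0.48 for Igfbpl1 and Eomes with the list taken as subventricular neuroblast markers.

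The genes with the most similar pattern were found by Pearson r of log2 CPM over the 34 libraries among 14447 genes with a mean of at least 1 CPM, as a description. Libraries share region content and genotype, which all these values include. Nearest to Mki67 were Frmd4a (0.75), C4b (0.71) and Lrguk (0.71), and over 31 libraries Zc3hav1 (0.78), Cd180 (0.73) and Pik3cg (0.73), of which C4b is a complement component and Cd180 a receptor of immune cells. Nearest to Top2a were Epb41l2 (0.61), C3ar1 (0.59), a complement receptor, and Rims2 (0.59). Nearest to Dcx were the activity-induced genes Nr4a1 (0.74) and Junb (0.73) and then Zfp512b (0.71), and nearest to Sox11 were Src (0.75), Zfp236 (0.74) and Auts2 (0.74). Over 31 libraries the nearest to Sox11 were Itgav (0.83), Alkbh5 (0.78) and Lrp1 (0.76).

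Neurod1 was nearest to Zbtb18 (0.97), Arhgef25 (0.96) and Olfm1 (0.96) over 34 libraries, and over 31 to Lct (0.89), Ppp3ca (0.86) and Prox1 (0.85), of which Prox1 is the transcription factor that defines dentate granule cells. Calb2 was nearest to Dlk1 (0.92), Zcchc12 (0.89) and Mrap2 (0.88), and over 31 to Zic1 (0.85), Pld5 (0.85) and Cd24a (0.85). Igfbpl1 was nearest to Sp8 (0.76), Dnah2 (0.74), a dynein of motile cilia, and Ano2 (0.74). Eomes was nearest to Traip (0.69), Fam126a (0.69) and Sox1ot (0.67), and over 31 to Zic1 (0.77), Lbhd2 (0.73) and Dlk1 (0.72). Zic1 was among the 3 nearest genes of Calb2, Eomes and Igfbpl1 over the 31 libraries.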

How the data were processed

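Hippocampal RNA of 34 mice was measured. The deposited counts per gene are whole numbers, and the authors' deposited RPKM table was used for levels between genes only. The submitters' processing notes name HISAT2 2.1.0, SAMtools 1.5 and HTSeq 0.6.1 and the build GRCm38. Whether counting used strand was not stated in these sources, so it is not known whether reads of overlapping antisense genes were kept apart. Library totals were 14.9 to 21.1 M counts (median 17.8 M), which leaves the rarest genes with few counts. Counts were tested with edgeR 4.0.16 (quasi-likelihood, TMM, filterByExpr by group) in 1 fit of 34 libraries with a mean per group and a sex term (25 residual degrees of freedom), two-sided, Benjamini-Hochberg over 17518 genes, threshold 0.05. Log2 CPM values carry a prior count of 2. The procedure was tested on simulated data. Correlations used 100000 permutations of animals within groups, and for microglia within the 16 or 18 animals. Alternatives were DESeq2 1.42.0, its size factors, no filter, no sex term, a replicate block, the compared groups alone, RPKM levels, and leaving out each library or 3 libraries. The 8 genes, the lists and the 3 libraries were chosen with earlier results of these data known. By rule the text names all 8 genes for the main effects, those with an unadjusted p under 0.05 or else the smallest p elsewhere, list members past the threshold or of smallest p, and the 3 nearest genes of each. The design text names 1 more tofacitinib 5xFAD and 1 more sham 5xFAD-Dp16 animal, not analysed here.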

Additional observations from a re-analysis of the deposited data

Results flagged for a closer look

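In groups of 4 or 5 animals, 48 sets of values were checked for 1 animal far from the others, which chance alone gives in about 1 of 20, and 4 were found. Dcx in 5xFAD-Dp16 tofacitinib animal 2 was 9.95 CPM, against 6.83 to 6.96 CPM in the other 3. Sox11 in WT tofacitinib animal 1 was 25.3 CPM, against 16.0 to 18.3 CPM in the other 4. Eomes in Dp16 tofacitinib animal 1 was 3.29 CPM, against 1.14 to 1.67 CPM. Calb2 in 5xFAD tofacitinib animal 2, one of the 3 libraries low in hippocampal markers, was 148 CPM, against 21.9 to 55.1 CPM.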

How the results depend on the processing

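The call of Mki67 with the transgenes held under each alternative run, with adjusted p up to 0.0478 (replicate block). With DESeq2 1 of the 8 genes (Dcx) passed for the segment in place of 0. With no filter on low counts Calb2 was added to the calls, giving 1 for the segment, 2 for the transgenes, and 1 each for 5xFAD-Dp16 against WT sham, tofacitinib in 5xFAD, tofacitinib in 5xFAD-Dp16 and tofacitinib by segment. Leaving out each library in turn gave 0 to 1 calls for the segment and for 5xFAD-Dp16 against WT sham, and 1 in each refit for the transgenes. Over all genes, calls for the segment were 242 with the filter, 705 without it and 415 with DESeq2, and for the transgenes 279, 884 and 404. For tofacitinib they were 0, 91 and 2. For 5xFAD-Dp16 against WT sham they were 168, 1270 and 344, with 85 without the 3 low libraries and 109 with the replicate block.

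Some values that did not pass changed sign. Without the 3 low libraries, such log2 values were 0.09 (Igfbpl1) and -0.096 (Calb2) for the segment, 0.037 (Sox11), 0.081 (Neurod1) and -0.106 (Calb2) for the transgenes, 0.3 (Calb2) for tofacitinib and -0.275 (Calb2) for 5xFAD-Dp16 against WT sham. With no sex term they were 0.033 (Igfbpl1, segment), -0.036 (Eomes, tofacitinib) and 0.022 (Calb2, tofacitinib). With the replicate block they were 0.023 (Eomes, segment), 0.027 (Igfbpl1, segment), -0.446 (Eomes, tofacitinib) and 0.026 (Calb2, tofacitinib). The cause was not tested. Animals of equal number in different groups showed little likeness, with a median r of 0.02, against -0.01 for pairs of other numbers. Of 98 same-number pairs 23 had r over 0.1, and 6 of 34 libraries were most like one of their own number. These values cannot exclude that equal numbers shared a litter, cage or day. Under the block no call among the 8 genes changed. With the block, calls for 5xFAD against WT sham fell from 78 to 22.

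Leaving out 1 library gave ranges that crossed 0 for Neurod1 (-0.285 to 0.041), Eomes (-0.407 to 0.075), Calb2 (-0.229 to 0.366) and Igfbpl1 (-0.254 to 0.121) with the segment. With the transgenes this held for Sox11 (-0.054 to 0.035) and Neurod1 (-0.217 to 0.038). With tofacitinib it held for Dcx (-0.064 to 0.05), Neurod1 (-0.269 to 0.028), Eomes (-0.152 to 0.189), Calb2 (-0.131 to 0.388) and Igfbpl1 (-0.177 to 0.192), and for 5xFAD-Dp16 against WT sham for Calb2 (-0.412 to 1.705). For the segment, the transgenes and tofacitinib, log2 ratios of mean levels with and without the factor were also taken from the deposited RPKM. In all 24 cases they differed from the CPM ratios by less than the within-group SD of log2 CPM. Both measures come from the same libraries, so this was a weak check. Low counts limit Mki67, Top2a, Eomes and Igfbpl1 most.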
